A study of Mus musculus with 6 samples.

Results

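Upk3b, Upk1b, Msln, Gpm6a, Lrrn4, Wt1, Krt7, Krt19 and Muc16 are marker genes of the mesothelium, and their reads were followed through epididymal white fat of control and cold-exposed mice. The 9 genes were chosen by symbol, and all 9 were found among the 23492 genes with at least 1 read, each with 1 read or more in every mouse. All reads on their transcripts in the GENCODE M21 annotation of the mouse genome (GRCm38) were summed for each mouse. The 6 animals were wild-type C57BL/6N males of 20 weeks, 3 controls (mice 5, 6 and 10, called ctrl 5, ctrl 6 and ctrl 10) and 3 kept in the cold (cold 7, cold 12 and cold 16). Cold mice were housed singly at 4 °C for 24 h before the fat pad was taken, and base housing was at 22 to 24 °C. The labels do not say whether controls were housed singly. From 100 ng of poly-A RNA a mouse, cDNA was read directly on an Oxford Nanopore device, without PCR.

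The mesothelium is the single layer of flat cells that lines the body cavities and covers the organs in them, visceral fat pads included. It arises from mesoderm yet builds keratin filaments and cell junctions as an epithelium does, and its free surface carries uroplakins, mesothelin and mucins that keep it smooth. Epididymal fat lies in the peritoneal cavity and wears such a coat, whereas subcutaneous fat does not. The transcription factor Wt1 is active in mesothelium and in its embryonic precursors.

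Total reads were 726283 to 1341592 a mouse, so that 1 read was worth 0.747 to 1.38 CPM (counts of a gene scaled to a common total of reads in genes). A count of 0 allowed 3 reads, or 2.24 to 4.14 CPM, and these limits and all intervals below cover counting error only. Summed CPM of 10 adipocyte genes was 48980 to 53905, although its largest members, Fabp4 and Cfd, went from means of 18345 to 22818 and of 15536 to 10879 CPM, each without overlap between groups. In the main test 1 of the 10 passed, the lipase gene Pnpla2, higher in cold, a call lost in 4 alternatives. Cfd did not pass in it (edgeR adjusted p = 0.0860) but did with DESeq2 (adjusted p = 0.0176) and in 4 other alternatives. Summed CPM was 9584 to 11936 in controls and 8518 to 10679 in cold mice for 10 fibroblast genes, most of it Gsn, and 1159 to 1479 and 972 to 1653 for 8 macrophage genes. It was 632 to 702 and 619 to 775 for 8 mural genes, and 326 to 347 and 357 to 407 for 8 nerve and Schwann cell genes seen of 10 listed. Most of this last sum was Prnp, at 302, 296 and 288 CPM in ctrl 5, 6 and 10 and 349, 320 and 360 in cold 7, 12 and 16. In every other gene seen of the nerve list the groups overlapped. None of the tested genes of these 4 lists, nor of 10 endothelial genes, passed (edgeR). The endothelial sum was 17354 to 20774 in controls and 23106 to 24315 in cold, led by Fabp4, which is also an adipocyte gene, and without Fabp4 it was 971 to 985 and 772 to 1019. Summed CPM of 14 genes of simple epithelia did not overlap either, at 28.2 to 46.9 in controls and 121 to 226 in cold mice. Only 4 of the 14 had enough reads to be tested, and all 4 rose (Epcam, Cldn7, Prom1, Spint2). Of all genes tested, 0.542% were called higher in cold. Epcam, Cldn7 and Prom1 had enough only through the cold mice, so their rise was partly set by the choice of genes tested. Of the untested genes, Cldn3, Cdh1, Elf3, Esrp1 and Spint1 had a higher CPM in every cold mouse than in any control. Cdh1 had 1 read in each control and 1 in cold 7, so these mice differed in its CPM by library size only. Esrp1 had 1 read in ctrl 6 and 2 in cold 7. Among all genes tested, 13.7% had groups that did not overlap, in either direction. No such share was taken over genes with too few reads to test. In Cldn4, Esrp2, Grhl2, Ehf and St14 the groups overlapped. Epcam lost its call with DESeq2 (adjusted p = 0.245), and Cldn7 without cold 12 (edgeR adjusted p = 0.0821) and with cold 16 as the only cold mouse (0.0935). For 15 genes of the epididymis and efferent ducts, which adjoin this fat pad, summed CPM was 12.4 to 33.1 and 252 to 396. The 396 of cold 7 rests on Crisp1, with 222 reads there and 0 to 2 in each other mouse, and without it cold 7 had 89.6 and the other cold mice 252 and 252. Of that last list 14 genes were seen, and both tested genes rose (Lrp2, Ccdc153). Both had enough reads only through the cold mice, so their rise was partly set by the choice of genes tested. Of the untested genes, Cubn, Pax8, Slc9a3, Foxj1 and Aqp9 had a higher CPM in every cold mouse than in any control. Cubn had 1 read in ctrl 6 and 1 in each cold mouse, so these mice differed in its CPM by library size only. Aqp9 had 3 reads in ctrl 6 and 3 in cold 7, which also differed by library size only. In Pax2, Cst8, Crisp1, Adam7, Rnase10, Lcn5 and Lcn8 the groups overlapped, and Rnase10 and Lcn5 had reads in controls only. In all, 4 of the 15 had no read in any control, among them Spag11b, with none in any mouse, and Lcn8, with 1 read in cold 16.

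Reads were assigned to transcripts in the deposited counts, by rules the sources used here do not give, and whether reads span whole molecules was not tested. The stretches that separate the transcripts of Wt1 and Msln are shown first. All 3 lie on GRCm38 and are written 5′ to 3′ on the gene's strand, with the part that only some transcripts carry in capitals. The first is a whole cassette exon of Wt1 (chr2:105144142-105144192, plus strand). The next is the Wt1 exon with 2 splice donors (chr2:105169926-105170018, plus strand), whose last 9 bases part the isoforms known as +KTS and −KTS between zinc fingers. The last is the Msln exon with 2 splice acceptors (chr17:25752942-25753074, minus strand).

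Wt1 cassette exon: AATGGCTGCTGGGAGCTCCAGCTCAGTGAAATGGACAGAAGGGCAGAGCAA
Wt1 long exon: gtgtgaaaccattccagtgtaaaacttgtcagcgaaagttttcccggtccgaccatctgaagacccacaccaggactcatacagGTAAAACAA
Msln long exon: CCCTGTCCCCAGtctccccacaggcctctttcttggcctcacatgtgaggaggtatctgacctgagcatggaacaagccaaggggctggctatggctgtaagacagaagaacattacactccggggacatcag

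Wt1 had 63 reads in the 6 mice. Of these, 39 had the cassette exon without the 9 bases, 11 had both, 8 and 2 were on a pair of transcripts with the 9 bases and no cassette exon, and 3 were on a transcript with a retained intron. The 51-base cassette exon was in 50 of the 60 spliced reads, a share of 83.3% (95% Wilson interval 72.0 to 90.7). By group, 36 control reads had it and 5 lacked it, against 14 and 5 cold reads. The 9 bases of the +KTS form were in 21 of 60 reads, 35.0% (24.2 to 47.6), with 15 of 41 in controls and 6 of 19 in the cold. As assigned, most reads of this factor thus carried the cassette exon and lacked the 9 bases. By the same assignment, 47 reads were on transcripts with a first exon starting at 105130883. Another 13 were on transcripts with upstream first exons, of which 12 were from controls and 1 was from a cold mouse. Whether the reads reached these first exons was not tested. No test between groups was made on these counts.

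Msln had 135 reads on 4 transcripts, which took 54, 47, 24 and 10 of them. The 12 bases shown in capitals were in 57 of the 135, 42.2% (34.2 to 50.7). In controls 34 reads had them and 46 did not, and in cold mice 23 had them and 32 did not, so both forms were in use in both groups in nearly the same proportion. Upk1b had 105 of 106 reads on 1 transcript. Of the 21 Muc16 reads, 15 went to a short annotated transcript of 1035 bases, 4 to one of 25437 bases and 2 to one of 7700 bases. The other genes had all their reads on a single transcript.

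No member passed the test between cold and ctrl. Of 9772 genes tested with edgeR's quasi-likelihood test, 64 (0.655%) had a Benjamini-Hochberg adjusted p below 0.05, 53 (0.542%) higher and 11 (0.113%) lower in cold. Of the 9 members, 5 had enough reads to be tested, and 0 of these 5 were called by edgeR, DESeq2 or limma-voom. At an unadjusted p below 0.05, edgeR had 2 of the 5 (Upk3b and Gpm6a) and 824 of all genes tested. The fitted log2 fold change (cold minus ctrl) was negative in 4 of the 5, with a median of -0.16, beside 0.01 over all genes tested. Mean CPM was lower in cold in 8 of 9 members and higher in Krt19. In bulk tissue, fewer cells of a type and less RNA per cell cannot be told apart, and this holds for every value below.

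**Figure D1:**
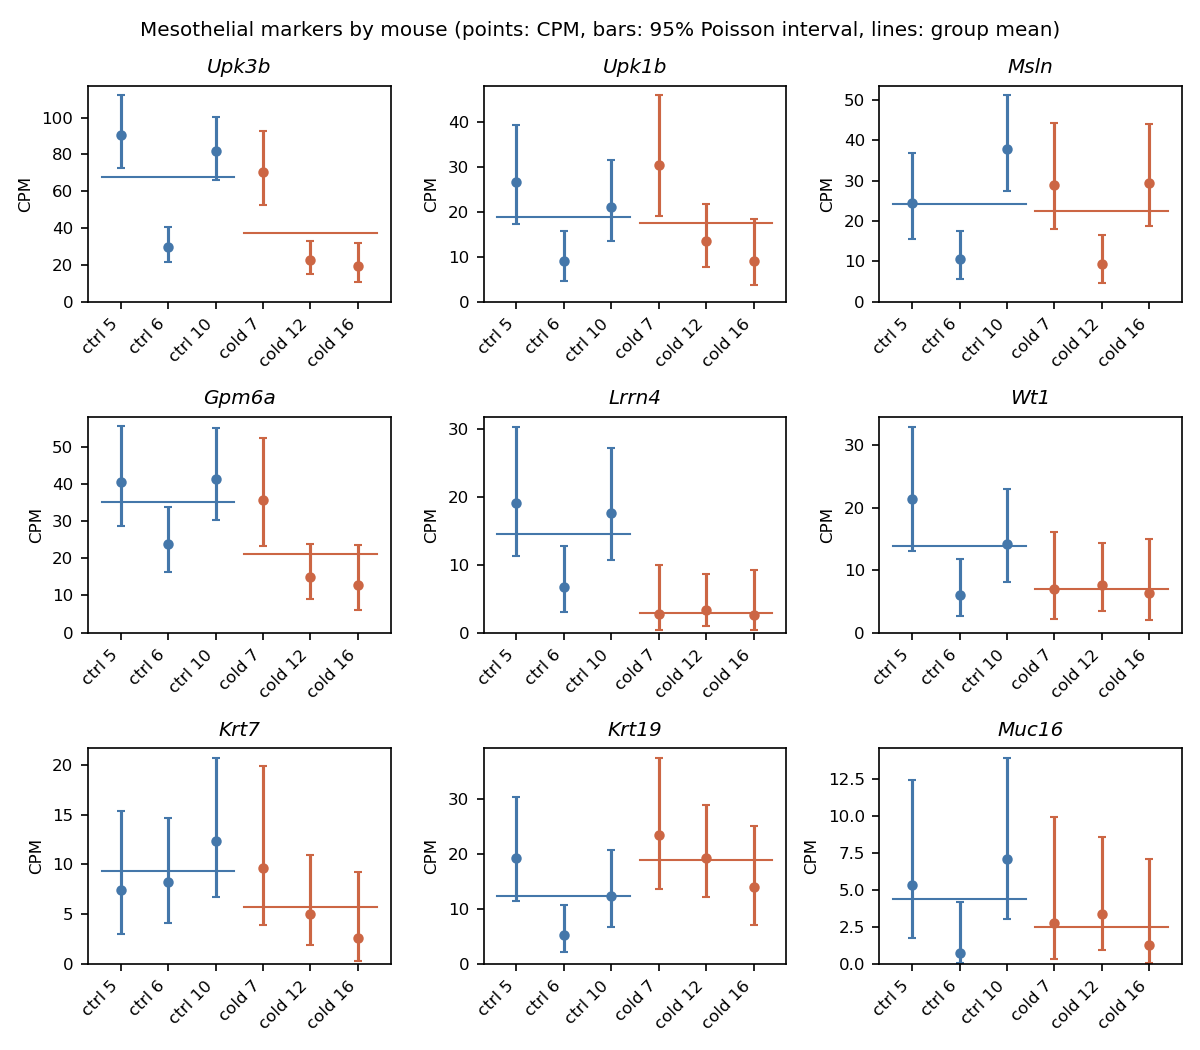
CPM of each mesothelial marker (vertical axis, from 0) in each mouse (horizontal axis), control mice in blue and cold mice in orange; bars are 95% Poisson intervals of the mouse's own reads and horizontal lines are group means. In Upk3b, ctrl 5, ctrl 10 and cold 7 sit at 70.3 to 90.7 CPM and the other 3 mice at 19.2 to 29.9, while Lrrn4 is the only panel in which the groups do not overlap.

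Of the surface proteins, the uroplakins come first. Upk3b (ENSMUSG00000042985.7, GRCm38 chromosome 5, 136038496 to 136046487, plus strand) encodes uroplakin 3b, a membrane protein found in bladder urothelium and mesothelium. It had 85, 40 and 93 reads in ctrl 5, 6 and 10 and 51, 27 and 15 in cold 7, 12 and 16. In CPM these were 90.7, 29.9 and 82.1, and 70.3, 22.6 and 19.2. Both groups held high and low mice, since cold 7 was near ctrl 5 and ctrl 10, and ctrl 6 was near cold 12 and cold 16. Means were 67.5 ± 32.9 and 37.4 ± 28.6 CPM (SD, n = 3), and the log2 fold change was -0.87 ± 0.39 (SE, edgeR adjusted p = 0.557, lower mean in cold). The difference is about as large as the spread within each group. With no filter on low counts it was called, at -0.88 (edgeR adjusted p = 0.00514). Without cold 7 the gene was called too, at -1.62 (edgeR adjusted p = 0.00701). Without ctrl 6 it was -1.26 (0.118), and without cold 12, the alternative with the smallest difference, -0.55 (0.855).

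Upk1b (ENSMUSG00000049436.5, chromosome 16, 38773184 to 38800328, minus strand) encodes uroplakin 1b, a tetraspanin that pairs with uroplakins of the third class. Its reads were 25, 12 and 24 in ctrl 5, 6 and 10 and 22, 16 and 7 in cold 7, 12 and 16, or 26.7, 8.96 and 21.2 against 30.3, 13.4 and 8.94 CPM. The highest mouse was cold 7 and the lowest cold 16, with ctrl 6 just above it, so the groups overlapped over their full range. Means were 18.9 ± 9.06 and 17.6 ± 11.3 CPM (SD, n = 3), with a log2 fold change of -0.08 ± 0.41 (SE, edgeR adjusted p = 0.981). Its sign turned without ctrl 5 (0.21), ctrl 10 (0.05), cold 12 (0.11) or cold 16 (0.19), and without cold 7 it was -0.64.

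Mesothelin and the mucin that binds it followed. Msln (ENSMUSG00000063011.7, chromosome 17, 25748613 to 25754378, minus strand) encodes mesothelin, a lipid-anchored glycoprotein of the mesothelial surface. It had 23, 14 and 43 reads in ctrl 5, 6 and 10 and 21, 11 and 23 in cold 7, 12 and 16, which is 24.5, 10.5 and 37.9 against 29.0, 9.23 and 29.4 CPM. Here ctrl 6 and cold 12 were low and the other 4 mice were high, and cold 16, low in Upk3b, was among the high ones. Means were 24.3 ± 13.7 and 22.5 ± 11.5 CPM (SD, n = 3), with a log2 fold change of -0.16 ± 0.42 (SE, edgeR adjusted p = 0.963). It turned positive without ctrl 10 (0.37) or cold 12 (0.32), and was -0.57 without ctrl 6.

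Muc16 (ENSMUSG00000109564.1, chromosome 9, 18495455 to 18674530, minus strand) encodes mucin 16, the CA125 antigen, a very large membrane mucin that binds mesothelin. Only 21 reads were seen, 5, 1 and 8 in ctrl 5, 6 and 10 and 2, 4 and 1 in cold 7, 12 and 16. In CPM these were 5.33, 0.747 and 7.06 against 2.76, 3.36 and 1.28, most of them near the limit that 3 reads set. Means of 4.38 ± 3.26 and 2.46 ± 1.07 CPM (SD, n = 3) overlapped and could not be separated at this depth (exact two-sided permutation p = 0.5, where 3 against 3 mice cannot go below 0.1). The difference of -1.92 CPM was -0.576 without ctrl 10, -3.73 without ctrl 6, -3.36 from X1 files and -0.0947 from X2 files.

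Gpm6a and Lrrn4 are membrane proteins first described in neurons that are also mesothelial markers. Gpm6a (ENSMUSG00000031517.8, chromosome 8, 54954843 to 55060871, plus strand) encodes a 4-pass glycoprotein of the proteolipid family. It had 38, 32 and 47 reads in ctrl 5, 6 and 10 and 26, 18 and 10 in cold 7, 12 and 16, or 40.5, 23.9 and 41.5 against 35.8, 15.1 and 12.8 CPM. The order of mice was nearly that of Upk3b, with cold 7 above ctrl 6, and the groups overlapped for that reason. Means were 35.3 ± 9.89 and 21.2 ± 12.7 CPM (SD, n = 3), with a log2 fold change of -0.75 ± 0.33 (SE, edgeR adjusted p = 0.544). Without cold 7 the gene was called, at -1.28 (edgeR adjusted p = 0.0297).

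Each mouse has a pair of read files, X1 and X2, and these differed more for Gpm6a than for any other member. From X1 alone its CPM was 51.2, 29.7 and 45.3 in ctrl 5, 6 and 10 and 17.9, 10.9 and 11.1 in cold 7, 12 and 16. From X2 alone it was 26.8, 16.7 and 36.5 against 57.0, 19.9 and 15.1. The gene was called from X1 (log2 fold change -1.65, edgeR adjusted p = 0.0194) and had the other sign in X2 (0.18, edgeR adjusted p = 0.962). The files differed for it by a chi-square of 2.63 per degree of freedom, against 2.09 for Upk1b. The value was 1.59 to 1.82 for Krt19, Muc16, Lrrn4 and Krt7, and 0.421 to 0.660 for Upk3b, Msln and Wt1. Over the better covered transcripts of a mouse it was 1.02 to 1.06. That range averages many transcripts within a mouse, so it is not a like measure to the value of a single gene. There are 5 genes of uncertain coding status that overlap Gpm6a, and they took 14 reads of their own. Cold 7, with 7 reads in X1 and 19 in X2, was the mouse that moved most between the files.

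Lrrn4 (ENSMUSG00000043110.2, chromosome 2, 132868305 to 132880891, minus strand) encodes a leucine-rich repeat membrane protein. It had 18, 9 and 20 reads in ctrl 5, 6 and 10 and 2, 4 and 2 in cold 7, 12 and 16. In CPM these were 19.2, 6.72 and 17.7 against 2.76, 3.35 and 2.55. All cold mice lay below all controls, and this was the only member of the 9 whose groups did not overlap. Of all genes tested, 13.7% had groups that did not overlap, and in 7.7% the cold values all lay below the controls. Lrrn4 had too few reads to be among the genes tested, and in all 5 tested members the groups overlapped. No share was taken over genes with so few reads, so 1 member of 9 is given as a count only.

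Means of Lrrn4 were 14.5 ± 6.80 and 2.89 ± 0.416 CPM (SD, n = 3), and the exact two-sided permutation p was 0.1, the smallest that 3 against 3 mice allow. Pooled over mice, 47 control and 8 cold reads gave a 4.65-fold lower rate in cold, with a 95% counting interval of 2.18 to 11.4 that leaves out the spread between mice. The gene had too few reads for the main test. With no filter on low counts it was called (log2 fold change -2.20, edgeR adjusted p = 0.00184), as it was without ctrl 6 (-2.57, edgeR adjusted p = 0.0198). In the other 4 fits that kept the gene it was not, with log2 fold changes of -2.09 to -2.39 and adjusted p of 0.0658 to 0.343. Even cold 7, high in Upk3b, Upk1b and Gpm6a, had 2 reads of Lrrn4.

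Wt1 (ENSMUSG00000016458.14, chromosome 2, 105126529 to 105173616, plus strand), the zinc finger transcription factor of the group, had 20, 8 and 16 reads in ctrl 5, 6 and 10 and 5, 9 and 5 in cold 7, 12 and 16. Its CPM was 21.3, 5.97 and 14.1 against 6.89, 7.55 and 6.39. Ctrl 5 and ctrl 10 were high, and ctrl 6 was the lowest of all 6 mice, so the groups overlapped. Means were 13.8 ± 7.68 and 6.94 ± 0.582 CPM (SD, n = 3, exact two-sided permutation p = 0.4, smallest possible 0.1). The difference of -6.86 CPM was -3.10 without ctrl 5, -10.8 without ctrl 6, -11.1 from X1 files and -1.44 from X2 files. In cold 7 Wt1 was low together with Lrrn4, although the uroplakin genes were high there.

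The keratins form intermediate filaments of simple epithelia as well as of mesothelium. Krt7 (ENSMUSG00000023039.17, chromosome 15, 101411043 to 101430313, plus strand) had 7, 11 and 14 reads in ctrl 5, 6 and 10 and 7, 6 and 2 in cold 7, 12 and 16, or 7.47, 8.21 and 12.4 against 9.65, 5.03 and 2.55 CPM. Cold 7 lay among the controls, and the means of 9.34 ± 2.63 and 5.75 ± 3.60 CPM did not differ beyond the spread (SD, n = 3, exact two-sided permutation p = 0.3). The difference of -3.60 CPM was -2.09 without ctrl 10, -5.55 without cold 7, -2.00 without cold 16, -1.20 from X1 files and -6.70 from X2 files.

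Krt19 (ENSMUSG00000020911.14, chromosome 11, 100140810 to 100148665, minus strand) was the member with a higher mean in cold. It had 18, 7 and 14 reads in ctrl 5, 6 and 10 and 17, 23 and 11 in cold 7, 12 and 16, or 19.2, 5.23 and 12.4 against 23.4, 19.3 and 14.1 CPM. Only ctrl 5 lay within the range of the cold mice. Means were 12.3 ± 6.99 and 18.9 ± 4.70 CPM (SD, n = 3), with a log2 fold change of 0.72 ± 0.38 (SE, edgeR adjusted p = 0.658). It was 0.30 without ctrl 6 and 1.14 without ctrl 5. Genes of simple epithelia, which also make Krt19, moved with the groups, and their part in this value was not tested. Of their 14 genes Epcam, an adhesion molecule, had 4, 0 and 0 reads in ctrl 5, 6 and 10 and 9, 54 and 26 in cold 7, 12 and 16. In 1 gene (Cldn4) there was no read in controls and only 1 in cold mice, in cold 12.

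**Figure D2:**
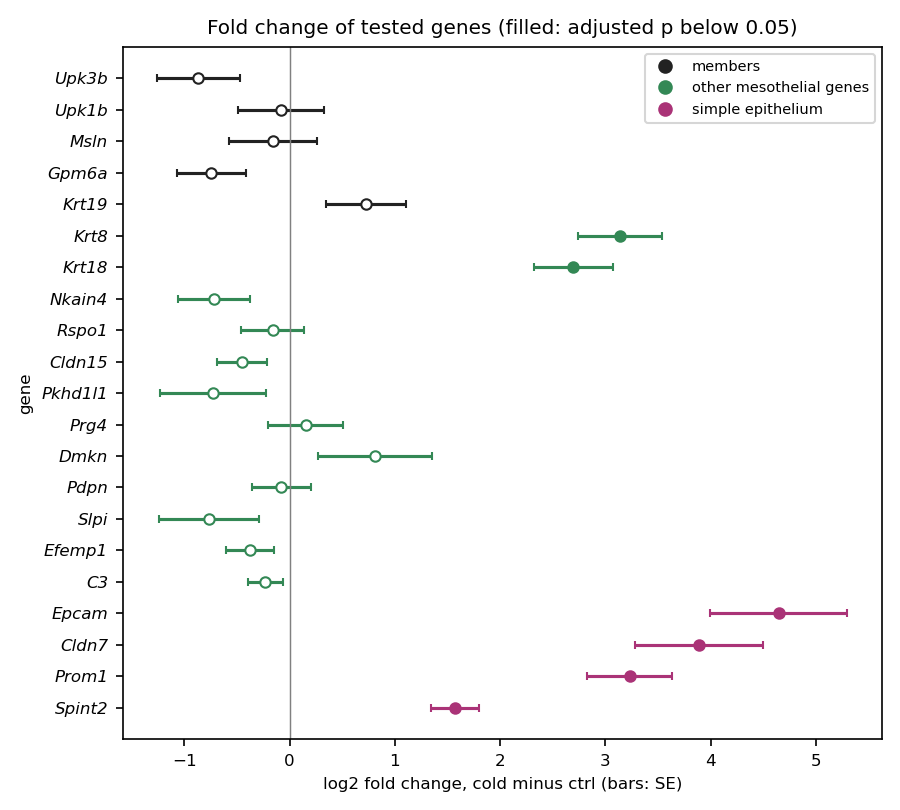
Log2 fold change, cold minus ctrl (horizontal axis, bars are SE), of the tested mesothelial markers, of the tested genes of the further mesothelial list and of 4 genes of simple epithelia, with filled points where the edgeR adjusted p is below 0.05. The 5 markers lie between -0.87 and 0.72 with open points, and Krt8, Krt18 and the 4 epithelial genes lie at 1.58 or above with filled points.

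A further list of 16 genes reported in mesothelium gave the surroundings of the members. Of these, 15 were seen, Calb2 having no read, and 12 were tested, of which 2 rose, 0 fell and 10 did not pass. The 2 that rose, Krt8 and Krt18, encode the keratin pair that all simple epithelia share. Krt8 had 7.47, 1.49 and 4.41 CPM in ctrl 5, 6 and 10 and 22.1, 44.4 and 40.9 in cold 7, 12 and 16, a log2 fold change of 3.14 ± 0.40 (SE, edgeR adjusted p = 0.000105). Krt18 had 6.40, 2.99 and 6.18 against 26.2, 44.4 and 23.0 CPM, a log2 fold change of 2.70 ± 0.37 (SE, edgeR adjusted p = 0.000323). In both genes every cold mouse was above every control, and both had enough reads to be tested only through the cold mice. The summed CPM of simple epithelial genes was also higher in each cold mouse, and its part in this rise was not tested. The call of Krt18 was lost with cold 16 as the only cold mouse (edgeR adjusted p = 0.0880).

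The list's median log2 fold change was -0.20, beside 0.01 over all genes tested. Slpi, a secreted protease inhibitor, had 126, 55.2 and 176 CPM in ctrl 5, 6 and 10 and 165, 26.0 and 26.8 in cold 7, 12 and 16. Cold 7 was again with the high controls, and the log2 fold change was -0.76 ± 0.47 (SE, edgeR adjusted p = 0.748), called without cold 7 (-2.14, edgeR adjusted p = 0.000202) and with cold 16 as the only cold mouse (-2.12, 0.0303), and with no filter on low counts (-0.78, 0.00151). Without cold 12 it was -0.28, without ctrl 10 -0.34 and without cold 16 -0.40. Nkain4, a protein that interacts with the sodium pump, had 43.7, 16.4 and 27.4 against 23.4, 15.1 and 12.8 CPM. Pdpn, the mucin-like surface protein podoplanin, had 59.7, 27.6 and 55.6 against 63.4, 33.5 and 37.0 CPM. In Cldn15, a claudin of tight junctions, the groups did not overlap, at 36.3, 37.3 and 51.2 against 35.8, 31.0 and 23.0 CPM, with ctrl 5 and cold 7 all but equal (edgeR adjusted p = 0.656).

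Of the remaining tested genes, mean CPM in controls and cold mice was 32.5 ± 14.5 and 27.3 ± 2.51 for Rspo1, a Wnt pathway agonist, and 13.9 ± 6.87 and 8.62 ± 6.88 for Pkhd1l1 (SD, n = 3). It was 18.5 ± 5.01 and 21.1 ± 10.3 for Prg4, the lubricating proteoglycan lubricin, and 7.21 ± 5.92 and 12.0 ± 4.45 for Dmkn, dermokine. For Efemp1, a fibulin of the matrix, it was 185 ± 72.8 and 141 ± 27.3, and for complement component C3 it was 301 ± 60.4 and 251 ± 48.7. All 6 had adjusted p of 0.731 or more (edgeR). The other 3 seen were too low to test. Aldh1a2, which makes retinoic acid, had 6.80 ± 2.94 and 6.73 ± 2.91 CPM, and the transcription factor genes Tbx18 and Bnc1 had 5.73 ± 4.10 and 3.28 ± 3.13, and 3.08 ± 2.28 and 0.885 ± 0.768 (SD, n = 3).

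The members differed between mice of the same group by more than most genes do. Within groups, the reads of Upk3b varied 19.5 times as much as counting alone gives (chi-square per degree of freedom). The ratio was 8.22 for Msln, 5.59 for Upk1b, 4.89 for Gpm6a, 2.83 for Krt19, 2.59 for Wt1, 2.05 for Lrrn4, 1.81 for Muc16 and 1.29 for Krt7. Over 6760 genes with a mean of 10 to 60 reads its median was 1.11 and its 90th percentile 2.77. Thus 5 members were above that percentile. The biological coefficient of variation that edgeR fitted was 0.301 for Upk3b, where 99.8% of the 2588 genes of like mean CPM (within 1.5-fold) were lower and their median was 0.111. It was 0.291 for Msln (99.6% lower), 0.262 for Upk1b (99.0%), 0.200 for Gpm6a (97.7%) and 0.198 for Krt19 (93.9%).

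The spread had the same shape in several members. Summed over the 9 genes, CPM was 255, 100.0 and 246 in ctrl 5, 6 and 10 and 211, 99.0 and 97.1 in cold 7, 12 and 16, from 239, 134, 279, 153, 118 and 76 reads. The mice stood at 2 levels, ctrl 5, ctrl 10 and cold 7 above and ctrl 6, cold 12 and cold 16 below, 2.63-fold from the highest to the lowest. Group means of the sum were 200 ± 87.0 and 136 ± 65.2 CPM (SD, n = 3), so the groups overlapped. Without Upk3b the sums were 164, 70.2 and 164 against 141, 76.3 and 77.9, and without both keratins 228, 86.6 and 222 against 178, 74.6 and 80.5, with the same 3 mice on top. Of the 9 members, ctrl 10 was among the 3 highest mice in 8, ctrl 5 in 7 and cold 7 in 6, but ctrl 6 in 2, cold 12 in 3 and cold 16 in 1. The lowest mouse was cold 16 in 5 members, ctrl 6 in 3 and cold 12 in 1.

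Each level held mice of both groups. In both groups the shallowest library had the highest sum. Controls with 939107, 1134875 and 1341592 reads had 255, 246 and 100.0 CPM, and cold mice with 726283, 784035 and 1194134 reads had 211, 97.1 and 99.0. The part of depth in the 2 levels was not tested. Summed CPM of the further mesothelial list had the same mice on top. It was 925, 535 and 1001 in ctrl 5, 6 and 10 and 909, 590 and 614 in cold 7, 12 and 16, a 1.87-fold range. Most of this sum was C3, Efemp1 and Slpi, with means of 301, 185 and 119 CPM in controls, and the sum without them was not taken. Krt8 and Krt18 of that list had another order, with every cold mouse above every control. Summed CPM of 10 fibroblast genes was 11516, 9584 and 11936 against 10679, 9703 and 8518, a 1.40-fold range with the same 3 mice highest too. Most of the fibroblast sum was Gsn, at 8508, 7582 and 9013 against 7445, 7390 and 6393 CPM, and the sum without it was not taken. The same 3 mice were highest for 8 macrophage genes, at 1479, 1159 and 1274 against 1653, 1228 and 972, a 1.70-fold range. The part of fibroblast and macrophage content in the members' spread was not tested. Mural genes had a 1.25-fold range. Simple epithelial genes had another order, with 46.9, 28.4 and 28.2 CPM in ctrl 5, 6 and 10 and 121, 226 and 213 in cold 7, 12 and 16.

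**Figure D3:**
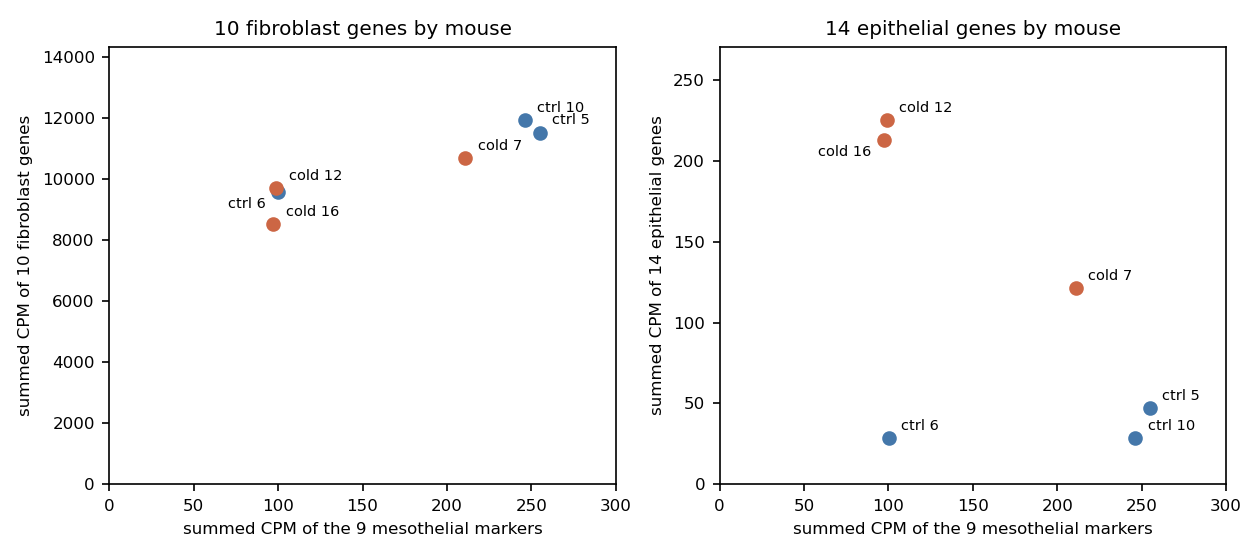
Summed CPM of the 9 mesothelial markers (horizontal axis) against that of 10 fibroblast genes (left) and 14 genes of simple epithelia (right), 1 point a mouse, control mice in blue and cold mice in orange. Ctrl 5, ctrl 10 and cold 7 lie at 211 to 255 CPM of the markers and the other 3 mice at 97.1 to 100.0; the fibroblast genes are highest in the same 3 mice, and the epithelial genes part the cold mice from the controls.

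For the 6 members with a mean of at least 10 reads a mouse, Pearson's r of log2 CPM was taken over the 6 mice for each of 15 pairs. Since the mice stood at 2 levels, and 3 mice within a level are too few for a relation to be tested, r is given as a description of these mice, with no p. All pairs share the same libraries. All 15 values were positive, from 0.13 to 0.98 with a median of 0.57, and 4 were over 0.7. From X1 files alone the median was 0.29 and 3 pairs, all with Krt19, were negative, down to -0.32. With 1 mouse left out 3 pairs, again with Krt19, could turn negative, down to -0.40. After each group's mean was subtracted they ran from 0.46 to 0.99 with a median of 0.69.

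Upk3b and Gpm6a were the closest pair, with r = 0.98 (Spearman's rho 0.94), 0.98 after subtracting group means and 0.99 without cold 12 and cold 16, the mice farthest from the median of Upk3b. Leaving those out keeps ctrl 6 as the only mouse at the low level, so the 0.99 rests on that mouse. From X1 files alone r of the pair was 0.87 and from X2 files alone 0.85, so the pair also went together within each file. Upk3b and Upk1b had 0.89, and 0.99 with group means subtracted, and Upk1b and Gpm6a 0.82 and 0.96. Upk3b and Wt1 had 0.75. Msln stood further off, at 0.57 with Upk3b and 0.40 with Wt1, and with 1 mouse left out its r with Upk3b ran from 0.40 to 0.94. Krt19 had the lowest values, 0.13 to 0.67 with the other 5 (median 0.31), and 0.46 to 0.94 (median 0.84) once group means were subtracted, since its group means went the other way.

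**Figure D4:**
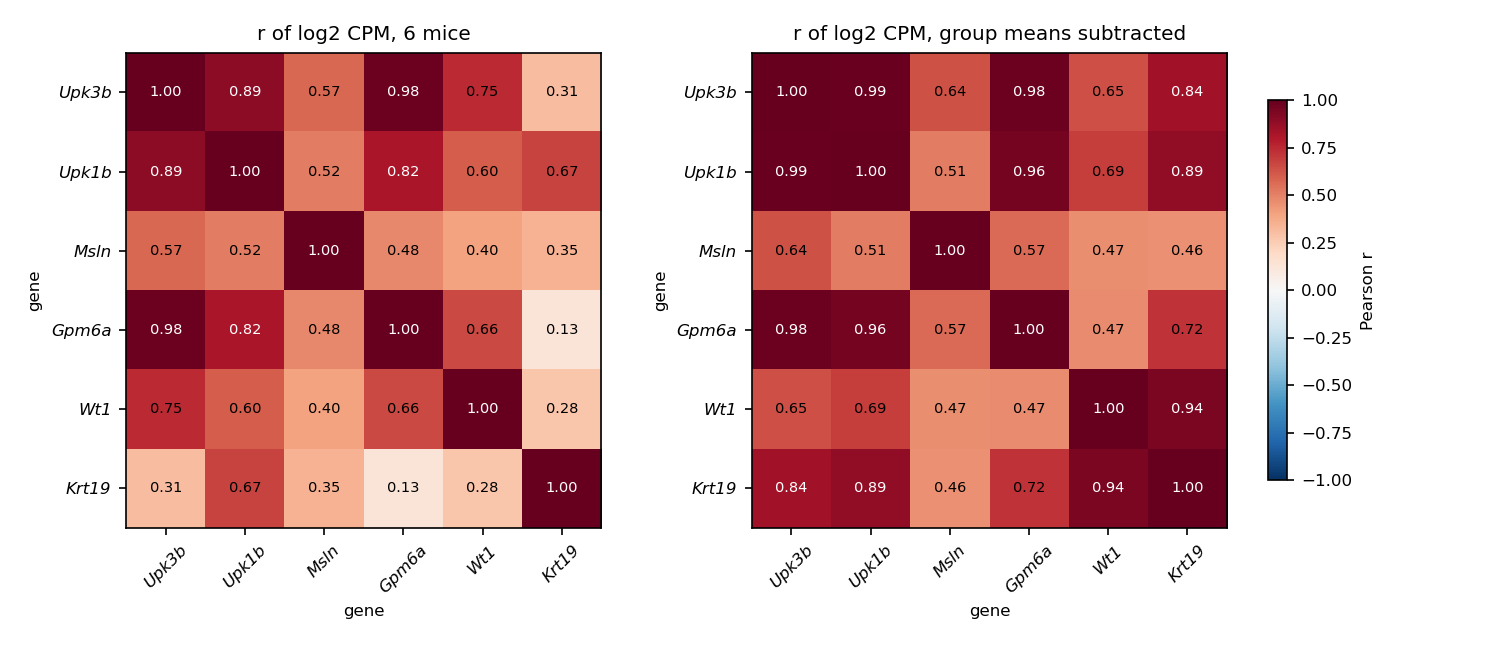
Pearson's r of log2 CPM between the 6 mesothelial markers with a mean of at least 10 reads a mouse, over 6 mice (left) and after each group's mean was subtracted (right), on a colour scale from -1 to 1. Upk3b, Upk1b and Gpm6a form the block of high values in both panels, and the Krt19 row is pale on the left (0.13 to 0.67) and darker on the right (0.46 to 0.94).

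Genes outside the list were ranked by their r over the 6 mice with the mean standardised level of the 6 members, among 7023 genes with a mean of at least 20 reads. The 10 closest were Cyp1b1 (0.997), C1ra (0.978), Nbeal1 (0.977), C3 (0.976), Ptgis (0.968), Pdpn (0.968), Sbsn (0.963), Aebp1 (0.960), Zfp36l1 (0.959) and Stom (0.958). Of these, C3 and Pdpn are on the further mesothelial list, and from that list Nkain4 ranked 65 and Slpi 109. Cyp1b1, a cytochrome of steroid and retinoid metabolism, had 33.1, 17.2 and 31.8 CPM in ctrl 5, 6 and 10 and 29.0, 19.3 and 19.2 in cold 7, 12 and 16. C1ra, a protease gene of the complement system, had 116, 56.7 and 95.3 against 91.0, 61.2 and 53.7 CPM. Both repeated the 2 levels of the uroplakin genes, with the same 3 mice above, which follows from their choice by r and is not a further result. Of the 15 genes seen of the further mesothelial list, 7 had enough reads to be ranked, from 4 to 930 (median 109). Krt8 and Krt18, the 2 of that list that rose, were below 20 reads and not ranked. Ranks were 38 to 2062 for 8 macrophage genes (median 614), 99 to 2424 for 9 fibroblast genes (median 412) and 125 to 6900 for 10 adipocyte genes (median 4746). Spint2 of simple epithelia ranked 4709 and Lrp2 of the ducts 5216, each the only gene of its list with enough reads to be ranked. With 6 mice and 7023 candidates, high values of r are found for genes of several cell types, and this ranking is a description.

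Promoters are shown for Upk3b and Gpm6a, the pair that went together most closely, and for Lrrn4, whose groups did not overlap. They come from RefSeq's table on GRCm38, which holds 5 of the 9 members, and end just before the RefSeq start or, for Lrrn4, before the GENCODE start upstream of it. Capitals mark matches, on either strand, to any of 6 motifs that were searched. The WT1 motif was GNGTGGGNG, and the TEAD motif was GGAATG. The AP-1 motif was searched as TGANTCA, and the GC box as GGGCGG. For the TATA box the letters were TATAAA, and the CCAAT box is spelled by its name. The windows are chr5:136038246-136038495 (plus strand) for Upk3b, chr8:54954478-54954727 (plus strand) for Gpm6a and chr2:132880892-132881112 (minus strand) for Lrrn4.

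Upk3b promoter: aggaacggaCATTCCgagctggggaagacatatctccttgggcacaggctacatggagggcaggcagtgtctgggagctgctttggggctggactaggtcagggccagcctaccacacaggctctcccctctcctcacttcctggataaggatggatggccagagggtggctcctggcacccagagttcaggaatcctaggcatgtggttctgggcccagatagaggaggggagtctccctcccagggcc
Gpm6a promoter: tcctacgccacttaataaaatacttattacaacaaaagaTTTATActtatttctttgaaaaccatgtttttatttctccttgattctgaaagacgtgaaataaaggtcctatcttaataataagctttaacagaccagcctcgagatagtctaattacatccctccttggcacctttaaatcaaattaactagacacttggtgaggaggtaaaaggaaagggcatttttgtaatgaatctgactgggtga
Lrrn4 promoter: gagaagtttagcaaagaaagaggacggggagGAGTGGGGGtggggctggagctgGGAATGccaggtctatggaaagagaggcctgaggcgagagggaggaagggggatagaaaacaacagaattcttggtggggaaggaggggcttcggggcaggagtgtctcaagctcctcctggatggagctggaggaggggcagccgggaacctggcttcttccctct

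Upk3b has a TEAD match on the minus strand 241 bases before its RefSeq start. Lrrn4 has a WT1 match 219 bases and a TEAD match 196 bases before its RefSeq start, which lies 29 bases downstream of its GENCODE start. Gpm6a has, in the window shown, a TATA match on the minus strand 211 bases before its RefSeq start, which lies 115 bases upstream of the GENCODE start. The table's other Gpm6a start, far upstream, has a TEAD match 125 bases before it. Krt7 has a WT1 match 206 bases before its RefSeq start and 4 GC boxes, and Muc16 has no match to the 6 motifs. Of all 32851 promoters in the table, 12.7% hold the WT1 motif, 12.6% the TEAD motif, 12.4% the TATA box, 32.7% the GC box, 33.8% the CCAAT box and 6.75% the AP-1 motif in a window of this length. In the windows shown the closest pair had no motif in common. A match is a description of the letters and not a site in use.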

How the data were processed

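As deposited, the 12 files hold raw read counts for each transcript of the annotation, with an X1 and an X2 file for each of 6 mice. Per the submitters' processing notes reads were aligned with minimap2 to GRCm38; the version is not given, and the sources used here do not name the counting tool, its use of strand or its handling of reads that match several transcripts. What parts X1 from X2 is not stated. Over the better covered transcripts their counts differed by about the sampling noise (chi-square per degree of freedom 1.02 to 1.06). Both were thus summed and each mouse counted once. Of 61729 transcript identifiers 61538 matched GENCODE M21 with versions ignored, and the rest, 0.139% to 0.165% of reads, were left out. Transcript counts were summed to 23492 genes. CPM is relative to reads in genes.

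Genes were tested with edgeR 4.0.16 (R 4.3.3): TMM normalization, filterByExpr (minimum count 10), quasi-likelihood test, Benjamini-Hochberg adjustment over all genes tested, threshold 0.05. Replicates are separate animals. Members that the filter left out had an exact two-sided permutation test of mean CPM (scipy 1.17.1). Log2 CPM for correlations used a prior count of 2. Named are all 9 members, the further mesothelial list, the 10 genes most alike, and, of other lists, genes past the threshold and up to 3 with the highest mean CPM, of which those that bear on a member are printed. Alternatives were DESeq2 1.42.0, limma-voom (limma 3.58.1), other scalings and filters, X1 or X2 files alone, protein-coding transcripts only, and leaving out mice. The members and lists were chosen with earlier results of these data known.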

Additional observations from a re-analysis of the deposited data

How the results depend on the processing

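Of 482 alternative values for 33 results, 425 kept their direction and their side of the threshold, or for counts stayed within 1.5-fold. The 64 genes called became 371 with no filter, 39 with X2 files, 140 with cold 16 as the only cold mouse (whose spread is then taken from the controls) and 35 to 199 with 1 mouse left out. Genes called higher (53) became 306, 31, 103 and 32 to 170 in the same settings and 35 with X1 files; genes called lower (11) became 65 with no filter, 37 with cold 16 alone, 7 with DESeq2 and 3 to 29 with 1 mouse left out. Members called (0) became 2 with no filter (Upk3b, edgeR adjusted p = 0.00514, and Lrrn4), 1 with X1 files (Gpm6a) and 0 to 2 with 1 mouse left out. The cause of these moves was not tested. With 1 mouse left out, log2 fold changes turned sign in Upk1b (-0.64 to 0.21), Msln (-0.57 to 0.37), Rspo1 (-0.52 to 0.11), Prg4 (-0.21 to 0.58) and Pdpn (-0.40 to 0.13). With cold 16 alone Msln was 0.31, and with X2 files Gpm6a was 0.18 and Pdpn 0.074. The median r over 15 pairs of members (0.57) was 0.29 with X1 files and 0.49 to 0.72 with 1 mouse left out; these settings, TMM-scaled CPM for members the test left out, and list sums without Crisp1 or Fabp4 were added after seeing the data. Ccdc153 lost its call with DESeq2 (adjusted p = 0.154). Other scalings moved the median log2 fold change of all genes by less than 0.05. No paired analysis was possible because the mouse numbers of the groups differ. With 21 to 63 reads over 6 mice, Muc16, Krt7, Lrrn4 and Wt1 are limited by depth.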
